A study of Mus musculus with 24 samples.

Results

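The transcripts of the epidermal growth factor (EGF) family were followed in cultured mouse pancreatic cancer cells. The 9 genes were chosen by name: 6 ligand genes (Ereg, Areg, Btc, Hbegf, Tgfa and Epgn) and 3 receptor genes (Egfr, Erbb2 and Erbb3), out of 54532 genes in the deposited table. Of the 9 genes, 6 passed a filter on low values (FPKM, the fragments of a gene per kilobase of its length and relative to library depth, had to reach 1 in 3 or more libraries) and were tested among 12061 genes. Epgn, Egfr and Erbb3 did not pass it and are described apart.

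The cells were HY19636, a line labelled as pancreatic ductal adenocarcinoma (PDAC), either knockout (KO) or wild type (WT) for Phgdh, the gene of the enzyme that starts serine synthesis from a glycolytic intermediate. Both genotypes were grown in a medium lacking serine and glycine (here called deprived) or in a medium holding them (supplied), and with hepatocytes (coculture) or without (monoculture). This gave 8 groups of 3 libraries: deprived KO coculture, deprived WT coculture, supplied KO coculture, supplied WT coculture, deprived KO monoculture, deprived WT monoculture, supplied KO monoculture and supplied WT monoculture. The series is titled as a study of serine supply from hepatocytes to pancreatic cancer in the liver. The sources used here do not say whether the KO and WT cells are single clones, which part of Phgdh was edited or how the cancer cells were taken from the coculture. The labels number the replicates without calling them separate cultures, so the error behind each p-value is that of these libraries and may be technical.

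EGF family ligands are made as membrane-anchored precursors, and metalloproteases such as ADAM17 and ADAM10 cut them free. The ligands bind EGFR or ERBB4, which pair with each other or with ERBB2, a receptor with no known ligand, and ERBB3, whose kinase is weak. The paired receptors signal through RAS to ERK and through PI3K to AKT, and the pathway acts in early pancreatic tumour formation in mice.

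Libraries held 15740081 to 23479425 reads assigned to genes. Phgdh, the gene named in the labels, had a mean FPKM of 483 to 874 in the 4 KO groups and 800 to 1311 in the 4 WT groups. It passed the test as lower in KO cells in 3 of 4 conditions. The exception was deprived monoculture (log2 change −0.21, limma adjusted p = 0.115). Of 10 ductal and epithelial markers 9 reached an FPKM of 1 in at least 1 library, led by Krt18, and Cldn4 was at most 0.0345. Their summed FPKM also moved with the groups, at 4404 to 4605 in deprived KO monocultures against 1207 to 1275 in deprived WT monocultures. Hepatocyte markers stayed near 0 in coculture libraries as in monoculture libraries: 19 of 20 were under an FPKM of 1 in every library, the exception being Apoa2 with a highest value of 1.04, Alb was at most 0.131, Fga, Fgb, Fgg, Ahsg and Cyp2e1 were at 0 throughout, and the sum of all 20 was 0.367 to 1.2 in cocultures against 0.0817 to 1.2 in monocultures. Markers of macrophages, of stellate cells and of acinar and islet cells (10 each) were all under 1. Among 8 endothelial markers Cdh5 and Vwf exceeded 1, with highest values of 1.35 and 1.29. The sum of the 8 was 0.181 to 0.224 in deprived KO monocultures, against 0.508 to 0.601 in deprived WT monocultures. It was higher in KO than in WT cells elsewhere: 1.74 to 2.05 against 0.449 to 0.558 in supplied monocultures. In cocultures it was 1.23 to 1.65 against 0.481 to 0.6 when deprived, and 1.73 to 2.26 against 0.539 to 0.637 when supplied. The part of the epithelial and endothelial shifts in the results below was not tested. In these bulk libraries, fewer cells of a kind and less RNA per cell cannot be told apart. Some KO libraries differed from the others of their group in these ligand genes: replicate 1 of the supplied KO monocultures was 1.48 times the mean of the other libraries for Ereg, 1.66 times for Areg and 1.38 times for Btc, and replicate 1 of the deprived KO cocultures was 0.694 times for Areg and 0.696 times for Btc.

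Of the 9 genes, 6 had a promoter in the RefSeq table for GRCm38.p6 (Areg, Tgfa, Btc, Epgn, Egfr and Erbb2). The 250 bases before the start are shown for Areg and Btc, which were higher together in KO cells in all 4 conditions, and for Tgfa, which was lower in KO cells in deprived monoculture and higher in the other conditions. They were read 5′ to 3′ on the strand of the gene at chr5:91139349-91139598 (plus strand) for Areg, chr5:91402995-91403244 (minus strand) for Btc and chr6:86194972-86195221 (plus strand) for Tgfa. Capitals mark matches to 4 motifs searched on both strands: the cAMP response element (CRE) TGACGTCA, the AP-1 site TGANTCA, the amino acid response element (CARE) TGATGNAAN, which binds ATF4, and the TATA box TATAAA.
Areg promoter: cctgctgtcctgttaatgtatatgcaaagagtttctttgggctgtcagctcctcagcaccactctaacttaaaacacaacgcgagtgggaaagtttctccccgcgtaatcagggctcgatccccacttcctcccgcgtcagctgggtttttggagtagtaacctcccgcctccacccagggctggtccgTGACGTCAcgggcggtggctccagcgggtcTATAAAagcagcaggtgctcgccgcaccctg
Btc promoter: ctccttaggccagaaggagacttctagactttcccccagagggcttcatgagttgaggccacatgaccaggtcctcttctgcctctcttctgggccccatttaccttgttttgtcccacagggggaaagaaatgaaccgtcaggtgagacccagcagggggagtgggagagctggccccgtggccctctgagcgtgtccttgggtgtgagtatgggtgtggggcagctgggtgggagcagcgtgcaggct
Tgfa promoter: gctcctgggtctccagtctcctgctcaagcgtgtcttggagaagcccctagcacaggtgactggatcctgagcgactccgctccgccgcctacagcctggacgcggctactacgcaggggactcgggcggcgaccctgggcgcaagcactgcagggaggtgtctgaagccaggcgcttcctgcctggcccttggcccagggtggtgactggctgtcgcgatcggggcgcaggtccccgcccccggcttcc
The Areg promoter held a CRE at 61 to 54 bases before the start and a TATA box at 31 to 26 bases before it, which do not overlap. Among 32851 mouse promoters of this length a CRE was present in 1.55%, and a TATA box in 12.4%. Epgn was the other gene of the 6 with a match, a TATA box 86 to 81 bases before the start. No match to the AP-1 site (6.75% of promoters) or the CARE (3.44%) was found in the 6 windows. These matches describe letters and show no binding.

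Ereg, Areg and Btc, the genes of the ligands epiregulin, amphiregulin and betacellulin, were highest in deprived KO monocultures, with a mean FPKM of 156 for Ereg, 777 for Areg and 37.7 for Btc, against 14.8, 204 and 20.8 in deprived KO cocultures, the next highest group for each. Compared with deprived WT monocultures the mean FPKM there was 50.1-fold higher for Ereg, 28.2-fold for Areg and 27.6-fold for Btc. Hbegf, Tgfa and Erbb2 were lowest in the same libraries.

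Ereg (ENSMUSG00000029377, chromosome 5, 91074622 to 91093646, GRCm38) encodes epiregulin, which binds EGFR and ERBB4. Its FPKM was 172, 145 and 152 in deprived KO monocultures, against 3.14, 2.81 and 3.43 in deprived WT monocultures. It was 8.19, 5.07 and 5.99 in supplied KO monocultures, against 2.29, 3.19 and 3.16 in supplied WT monocultures. In both media the genotypes did not overlap, and the 3 deprived KO libraries lay above all others. Deprived KO cocultures had 13.4, 16.6 and 14.4, against 5.94, 7.08 and 6.81 in deprived WT cocultures. Supplied KO cocultures had 6.96, 7.36 and 7.86, against 5.52, 6.68 and 5.89 in supplied WT cocultures. In coculture the deprived groups were widely apart, while the supplied groups nearly touched.

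Areg (ENSMUSG00000029378, chromosome 5, 91139599 to 91148432) encodes amphiregulin, a ligand of EGFR. It was the most abundant of the 9 transcripts in every KO group. Its FPKM was 857, 728 and 746 in deprived KO monocultures, against 25.9, 29.0 and 27.7 in deprived WT monocultures. Supplied KO monocultures had 107, 63.6 and 65.2, against 24, 24.9 and 28.2 in supplied WT monocultures. The first of the supplied KO libraries was 1.66 times the mean of the others, and the genotypes did not overlap in either medium. Deprived KO cocultures had 157, 250 and 204, against 59.2, 58.6 and 60.8 in deprived WT cocultures. Supplied KO cocultures had 103, 106 and 110, against 57.8, 63.5 and 62.4 in supplied WT cocultures. The KO libraries were again all above the WT libraries. By mean FPKM Areg ranked 35 of 12061 tested genes in deprived KO monocultures and 1783 in deprived WT monocultures.

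Btc (ENSMUSG00000082361, chromosome 5, 91357261 to 91402994) encodes betacellulin, which binds EGFR and ERBB4. Its FPKM was 43.5, 34.5 and 35.1 in deprived KO monocultures, against 1.41, 1.26 and 1.43 in deprived WT monocultures. The supplied KO monocultures had 6.55, 4.60 and 4.91, against 1.16, 1.07 and 1.22 in supplied WT monocultures. Every KO library exceeded every WT library, in coculture as well. The deprived KO cocultures had 16.1, 24.2 and 22.1, against 2.83, 3.30 and 2.67 in deprived WT cocultures. The supplied KO cocultures had 8.91, 8.55 and 8.75, against 3.52, 3.44 and 3.32 in supplied WT cocultures. The lowest Btc value among the 12 KO libraries was 4.60, above the highest of the 12 WT libraries (3.52).

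Hbegf (ENSMUSG00000024486, chromosome 18, 36504929 to 36515805) encodes heparin-binding EGF-like growth factor, which binds EGFR and ERBB4. It went the other way. Its FPKM was 19.5, 19.5 and 21.7 in deprived KO monocultures, against 42.8, 45.2 and 40.9 in deprived WT monocultures. Supplied KO monocultures had 27.96, 29.9 and 29.6, against 46.5, 45.5 and 45.4 in supplied WT monocultures. All KO libraries were below all WT libraries. Deprived KO cocultures had 35.7, 36.8 and 36.2, against 72.9, 71.0 and 70.7 in deprived WT cocultures. Supplied KO cocultures had 32.5, 33.2 and 35.8, against 73.7, 72.1 and 71.4 in supplied WT cocultures. The highest value in any KO library was 36.8 and the lowest in any WT library 40.9.

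Tgfa (ENSMUSG00000029999, chromosome 6, 86195223 to 86275719) encodes transforming growth factor alpha, a ligand of EGFR. Its FPKM was 4.65, 4.77 and 4.64 in deprived KO monocultures, against 6.86, 6.25 and 7.12 in deprived WT monocultures. The supplied KO monocultures had 9.89, 8.71 and 9.01, against 7.63, 6.95 and 6.53 in supplied WT monocultures. KO libraries were therefore below WT libraries in the deprived medium and above them in the supplied medium. The deprived KO cocultures had 12.8, 12.6 and 12.8, against 8.21, 9.07 and 8.93 in deprived WT cocultures. The supplied KO cocultures had 11.96, 11.7 and 12.1, against 9.32, 9.42 and 9.98 in supplied WT cocultures. In coculture the KO libraries were the higher ones in both media.

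Erbb2 (ENSMUSG00000062312, chromosome 11, 98412470 to 98437716) was the only receptor gene past the filter. Its FPKM was 4.76, 6.03 and 5.27 in deprived KO monocultures, against 12.2, 11.9 and 12.2 in deprived WT monocultures. Supplied KO monocultures had 9.91, 11.1 and 11.8, against 11.6, 11.5 and 11.5 in supplied WT monocultures. The genotypes were apart in the deprived medium and overlapped in the supplied medium. Deprived KO cocultures had 8.86, 7.46 and 8.29, against 9.63, 10.03 and 8.65 in deprived WT cocultures. Supplied KO cocultures had 9.42, 10.4 and 10.3, against 9.58, 9.49 and 9.67 in supplied WT cocultures. In coculture the genotypes overlapped in both media.

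**Figure D1:**
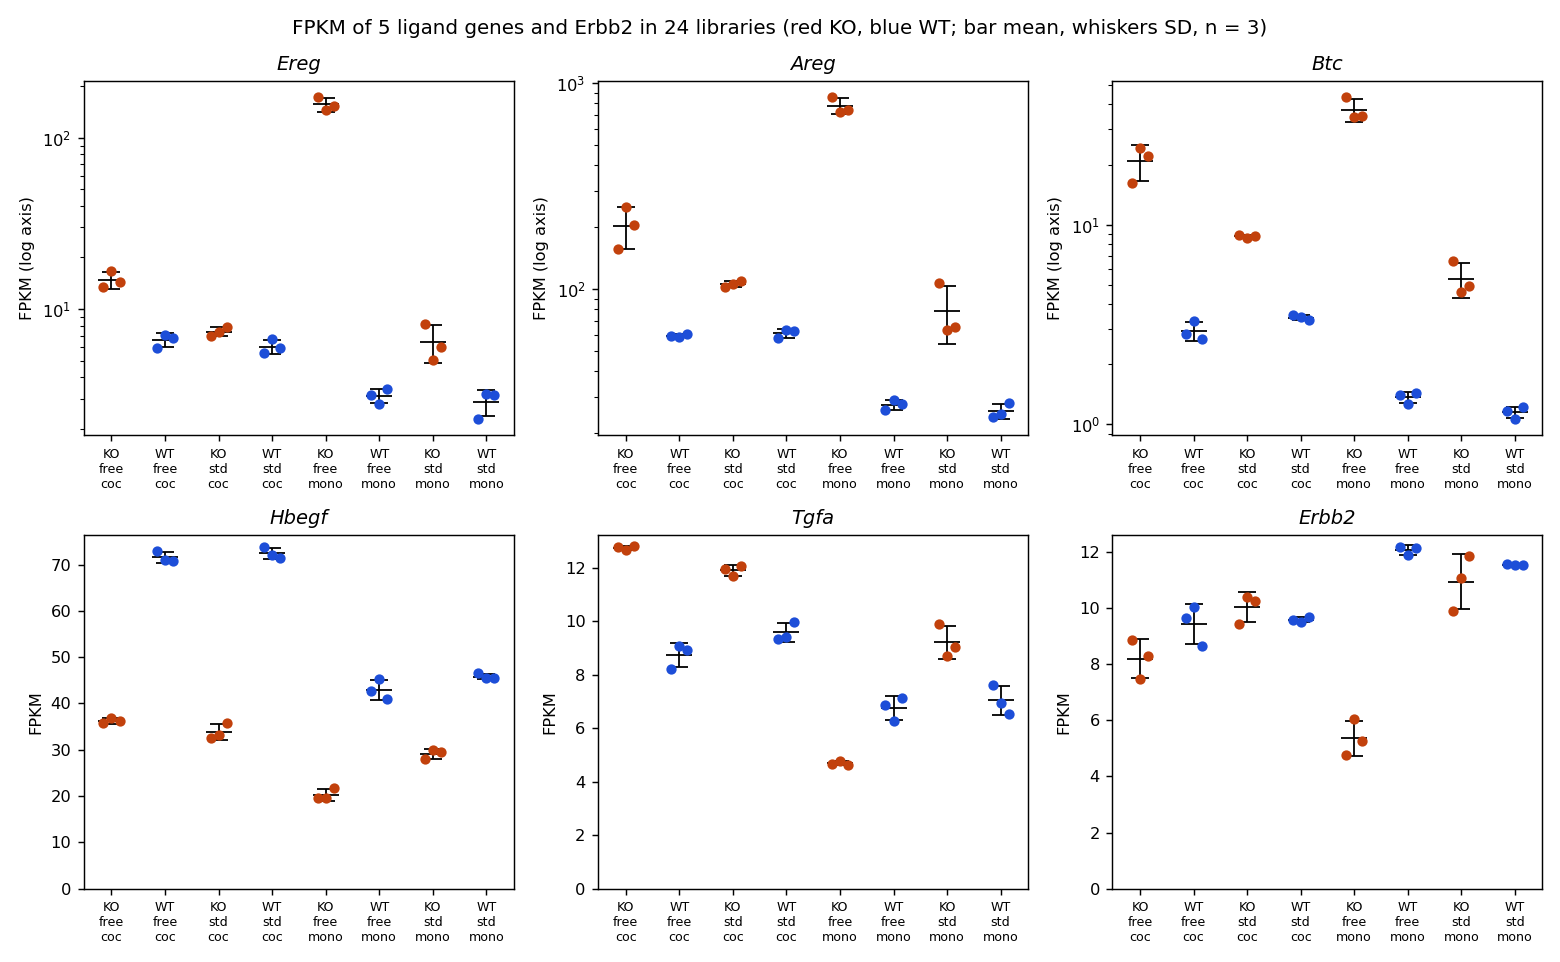
FPKM of Ereg, Areg and Btc (log axes) and of Hbegf, Tgfa and Erbb2 (linear axes from 0) in each library, with the mean and SD of the 3 libraries of a group; KO is red, WT blue, free and std are the deprived and supplied media, coc and mono are coculture and monoculture. Ereg, Areg and Btc peak in deprived KO monocultures, at mean FPKM of 156, 777 and 37.7, where Hbegf, Tgfa and Erbb2 are lowest, at 20.2, 4.68 and 5.35.

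The order of the group means was alike at its upper end for Ereg, Areg and Btc: deprived KO monoculture, then deprived KO coculture, then supplied KO coculture, each apart from the next with no overlap of libraries. Below these, the Btc groups kept separate in every step, down to 1.15 in supplied WT monocultures. For Ereg the means of 7.39 in supplied KO cocultures, 6.61 in deprived WT cocultures, 6.42 in supplied KO monocultures and 6.03 in supplied WT cocultures overlapped with their neighbours. For Areg the supplied KO cocultures overlapped with the supplied KO monocultures, as did the WT cocultures with each other and the WT monocultures with each other. Hbegf had its highest means in the WT cocultures, which overlapped, and its lowest in deprived KO monocultures. Tgfa was highest in deprived KO cocultures (12.7) and supplied KO cocultures (11.9), which did not overlap. For Erbb2 all neighbours between supplied WT monocultures (11.6) and deprived KO cocultures (8.20) overlapped, deprived WT monocultures (12.1) stood above them and deprived KO monocultures (5.35) below.

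KO cells were set against WT cells in each of the 4 conditions. All log2 changes are on the log2(FPKM + 1) scale and are given with their standard error, and a gene counted as called where its adjusted p was under 0.05. In deprived monoculture KO cells differed in all 6 tested genes, with 3 of them higher and 3 lower, where 73.6% of all tested genes were called. Ereg rose by 5.25 ± 0.13 (limma adjusted p = 1.45e-17), Areg by 4.77 ± 0.16 (adjusted p = 1.18e-15) and Btc by 4.02 ± 0.12 (adjusted p = 3.65e-16). Hbegf was at −1.05 ± 0.05 (adjusted p = 2.15e-13), Erbb2 at −1.05 ± 0.07 (adjusted p = 1.30e-10) and Tgfa at −0.44 ± 0.06 (adjusted p = 7.82e-07). The median of the 6 changes was 1.79, which falls between the 3 higher and the 3 lower genes and near none of them, against 0.00139 over all tested genes.

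In supplied monoculture 5 of the 6 were called, 4 higher and 1 lower, where 42.7% of all tested genes were called. Btc (1.55 ± 0.12, limma adjusted p = 5.05e-09), Areg (1.54 ± 0.16), Ereg (0.92 ± 0.13) and Tgfa (0.35 ± 0.06) were higher in KO cells, and Hbegf was lower (−0.63 ± 0.05, adjusted p = 3.36e-09). Erbb2 did not pass (−0.08 ± 0.07, adjusted p = 0.439). In supplied coculture 4 of the 6 were called, 3 higher and 1 lower, with 43.9% of all tested genes called. Btc (1.14 ± 0.12), Areg (0.79 ± 0.16) and Tgfa (0.29 ± 0.06) were higher and Hbegf was lower (−1.08 ± 0.05, adjusted p = 1.33e-12). Ereg did not pass there (0.26 ± 0.13, adjusted p = 0.111), although its 3 KO libraries lay above the 3 WT libraries. It passed with only those groups in the fit (adjusted p = 0.027) and without replicate 1 of both KO monocultures (adjusted p = 0.0416), and its adjusted p ran to 0.285 over the alternatives.

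In deprived coculture all 6 were called, 4 higher and 2 lower, with 53.6% of all tested genes called. Btc (2.46 ± 0.12, limma adjusted p = 3.21e-12), Areg (1.73 ± 0.16), Ereg (1.05 ± 0.13) and Tgfa (0.50 ± 0.06) were higher in KO cells and Hbegf was lower (−0.96 ± 0.05). Erbb2 was called at −0.18 ± 0.07 (adjusted p = 0.0435). That call rests on single libraries: it was lost without replicate 2 or 3 of the KO cocultures or replicate 1 or 2 of the WT cocultures, with a highest adjusted p of 0.208 (without KO replicate 2). It was also lost with no filter (0.0746), with voom (0.052), with the replicate block (0.0538) and with only those groups in the fit (0.132).

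Withdrawal of serine and glycine asked how the cells responded to the loss of outside supply. In KO monoculture all 6 genes were called, 3 higher and 3 lower, where 70.8% of all tested genes were called. Mean FPKM in deprived cells was 24.4 times that in supplied cells for Ereg (4.42 ± 0.13 on the log2 scale, limma adjusted p = 2.84e-16). The ratio was 9.88 for Areg (3.33 ± 0.16, adjusted p = 3.78e-13) and 7.05 for Btc (2.61 ± 0.12, adjusted p = 3.53e-13). Erbb2 was at −0.91 ± 0.07, Tgfa at −0.84 ± 0.06 and Hbegf at −0.51 ± 0.05, with adjusted p-values of 1.33e-09, 9.48e-11 and 1.57e-08.

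In WT monoculture none of the 6 was called by limma on either FPKM or the recovered reads, and 0 reached an unadjusted p under 0.05; 1.63% of all tested genes were called. The changes lay between −0.09 ± 0.05 for Hbegf and 0.14 ± 0.12 for Btc. Their limma adjusted p-values were at least 0.489. In WT coculture none of the 6 was called either by limma on FPKM or on reads, 0 reached an unadjusted p under 0.05, and 0.738% of all tested genes were called. The changes lay between −0.17 ± 0.12 for Btc and 0.12 ± 0.13 for Ereg. In KO coculture 4 of the 6 were called, 3 higher and 1 lower, with 29.9% of all tested genes called. Btc rose by 1.14 ± 0.12 (limma adjusted p = 1.40e-06), Ereg by 0.91 ± 0.13 (adjusted p = 3.67e-05) and Areg by 0.91 ± 0.16 (adjusted p = 0.000269). Erbb2 was at −0.26 ± 0.07 (adjusted p = 0.0123), a call lost without replicate 2 of the deprived KO cocultures (adjusted p = 0.0804) or replicate 2 of the supplied KO cocultures (adjusted p = 0.0505) and with only those groups in the fit (adjusted p = 0.073). Hbegf (0.10 ± 0.05) and Tgfa (0.09 ± 0.06) did not pass.

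The test of the difference between KO and WT responses called all 6 genes in monoculture, 3 higher and 3 lower, where 61.2% of all tested genes were called. Ereg responded more in KO cells by 4.33 ± 0.18 (limma adjusted p = 2.27e-13), Areg by 3.23 ± 0.22 and Btc by 2.47 ± 0.17. In coculture the same test called 3 of 6, all higher, with 14.4% of all tested genes called: Btc (1.32 ± 0.17, adjusted p = 6.73e-05), Areg (0.95 ± 0.22, adjusted p = 0.00783) and Ereg (0.79 ± 0.18, adjusted p = 0.007).

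**Figure D2:**
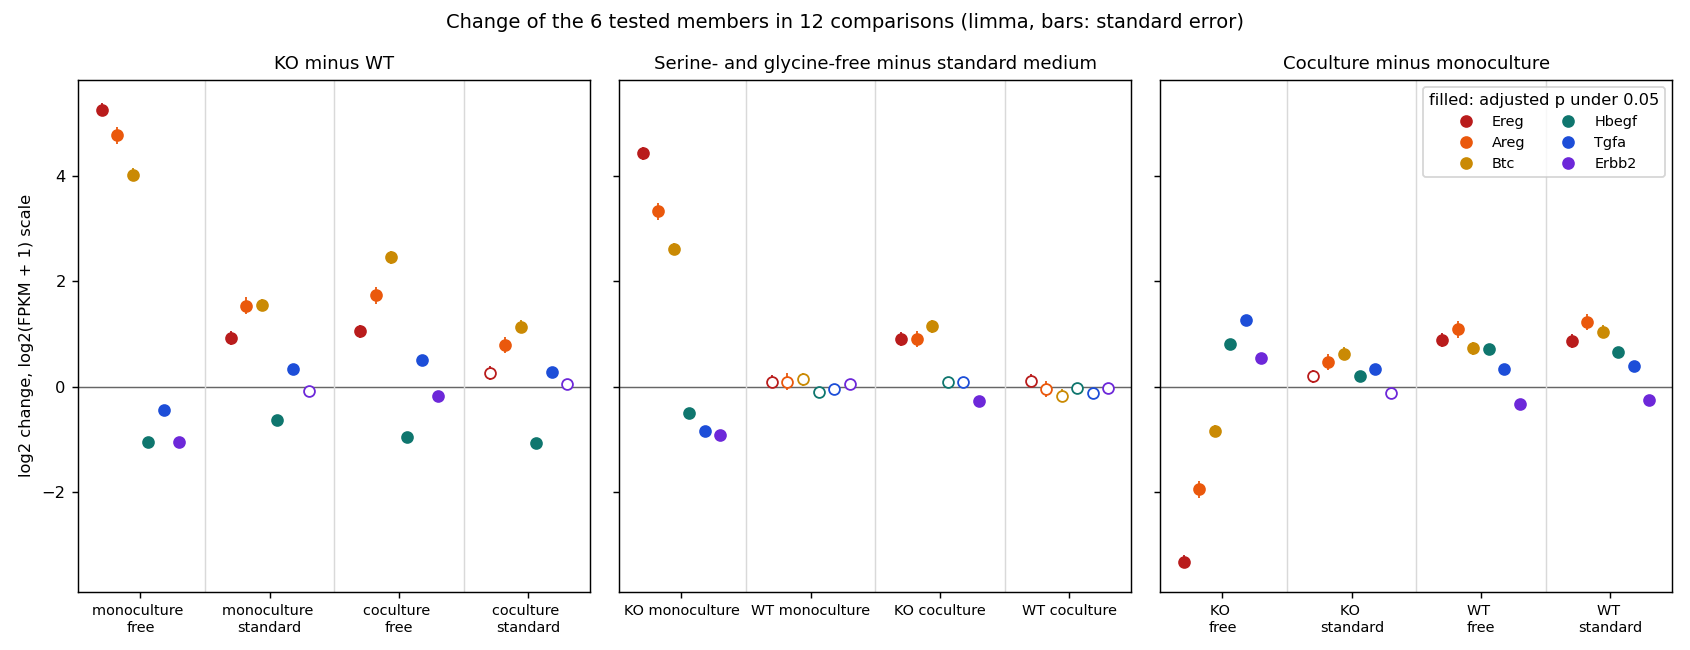
Log2 change with its standard error for the 6 tested genes in 12 comparisons, grouped as KO minus WT, deprived (free) minus supplied (standard) medium, and coculture minus monoculture; filled points passed an adjusted p under 0.05. Ereg spans the widest range, from −3.32 for coculture of deprived KO cells to 5.25 for KO against WT in deprived monoculture, and the WT withdrawal points lie near 0.

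Coculture was compared with monoculture to ask what the presence of hepatocytes changed. In deprived KO cells all 6 genes were called, 3 higher and 3 lower, where 71.3% of all tested genes were called. Ereg was lower in coculture by a wide margin (−3.32 ± 0.13, limma adjusted p = 1.71e-14), with a mean FPKM of 14.8 ± 1.65 in cocultures and 156 ± 14.4 in monocultures (SD, n = 3 each). Areg was at −1.95 ± 0.16 (adjusted p = 1.10e-09) and Btc at −0.84 ± 0.12 (adjusted p = 4.43e-06). Tgfa rose by 1.27 ± 0.06 (adjusted p = 1.73e-13), Hbegf by 0.81 ± 0.05 and Erbb2 by 0.54 ± 0.07. These comparisons share the deprived KO monocultures with those of KO against WT and of withdrawal.

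In WT cells coculture raised all 5 tested ligand genes. With serine and glycine 5 were higher and Erbb2 was lower, so that all 6 were called, and 31.2% of all tested genes were called. Areg rose by 1.22 ± 0.16 (limma adjusted p = 4.42e-06), Btc by 1.04 ± 0.12, Ereg by 0.86 ± 0.13, Hbegf by 0.65 ± 0.05 and Tgfa by 0.40 ± 0.06, and Erbb2 was at −0.25 ± 0.07 (adjusted p = 0.0147). In the deprived medium again 5 were higher and 1 lower, with 28.1% of all tested genes called. Areg was at 1.09 ± 0.16, Ereg at 0.88 ± 0.13, Btc at 0.73 ± 0.12, Hbegf at 0.72 ± 0.05, Tgfa at 0.33 ± 0.06 and Erbb2 at −0.33 ± 0.07 (adjusted p = 0.00204).

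In supplied KO cells 4 of the 6 were called, all higher in coculture, where 40.0% of all tested genes were called. Btc rose by 0.63 ± 0.12 (limma adjusted p = 0.000364), Tgfa by 0.34 ± 0.06 and Hbegf by 0.21 ± 0.05, the last not with only those groups in the fit (adjusted p = 0.0655). Areg was called at 0.47 ± 0.16 (adjusted p = 0.0207), but its libraries overlapped. The Areg call was lost without replicate 2 or 3 of the KO monocultures or replicate 3 of the KO cocultures, with adjusted p-values from 0.0612 (without the coculture library) to 0.104 (without monoculture replicate 2). It was also lost with quantile normalization (0.0941) and with only those groups in the fit (0.151), and without replicate 1 of the KO monocultures the change was 0.71. Ereg did not pass (0.20 ± 0.13, adjusted p = 0.234), yet it was at 0.36 (adjusted p = 0.0193) without replicate 1 of the KO monocultures. Erbb2 was at −0.11 ± 0.07 and did not pass, but was at −0.18 (limma adjusted p = 0.048) without replicate 1 of both KO monocultures.

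Between KO and WT cells the coculture effect in the supplied medium differed for 3 of 6 genes, all lower in KO cells, where 10.4% of all tested genes were called. They were Hbegf (−0.44 ± 0.07, limma adjusted p = 0.00033), Ereg (−0.66 ± 0.18, adjusted p = 0.0235) and Areg (−0.75 ± 0.22, adjusted p = 0.0348). The Ereg call was lost without replicate 1 of the supplied KO monocultures, WT monocultures or KO cocultures or replicate 2 of the WT cocultures, and the Areg call was lost without any of 8 single libraries, so that 1 to 3 genes were called. Within KO cells the withdrawal effect differed between coculture and monoculture for all 6 genes, 3 higher and 3 lower, with 57.7% of all tested genes called. Ereg was at −3.52 ± 0.18 (limma adjusted p = 6.13e-12), Areg was at −2.42 ± 0.22 and Btc at −1.47 ± 0.17, while Tgfa (0.93 ± 0.08), Erbb2 (0.65 ± 0.10) and Hbegf (0.60 ± 0.07) were higher.

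Since FPKM is scaled to gene length, the ligand transcripts can be set beside each other. Their summed FPKM was 996 ± 88.7 in deprived KO monocultures, against 81.7 ± 2.51 in deprived WT monocultures. It was 288 ± 52.2 in deprived KO cocultures and 149 ± 0.579 in deprived WT cocultures (SD, n = 3 each). Areg made up 78.0 ± 0.249% of the sum in deprived KO monocultures and 33.7 ± 1.15% in deprived WT monocultures. Hbegf, the leading ligand transcript of all 4 WT groups, made up 2.04 ± 0.245% in deprived KO monocultures and 52.5 ± 1.56% in deprived WT monocultures. The make-up of the WT sum was close to the same in both media, with Hbegf at 55.5 ± 1.64% in supplied monocultures and 47.4 ± 1.5% in supplied cocultures.

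The 3 ligand transcripts that rose did not keep fixed proportions. Areg FPKM was 4.89 to 5.04 times Ereg FPKM in deprived KO monocultures, against 8.07 to 10.3 times in deprived WT monocultures. In cocultures the ratio was 11.8 to 15.03 in deprived KO cells and 8.27 to 9.97 in deprived WT cells. Ereg FPKM was 3.96 to 4.34 times Btc FPKM in deprived KO monocultures, against 2.22 to 2.40 times in deprived WT monocultures, and Ereg was below Btc in both KO cocultures, at 0.650 to 0.831 times when deprived and 0.781 to 0.898 times when supplied. These ratios are descriptions with no test.

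**Figure D3:**
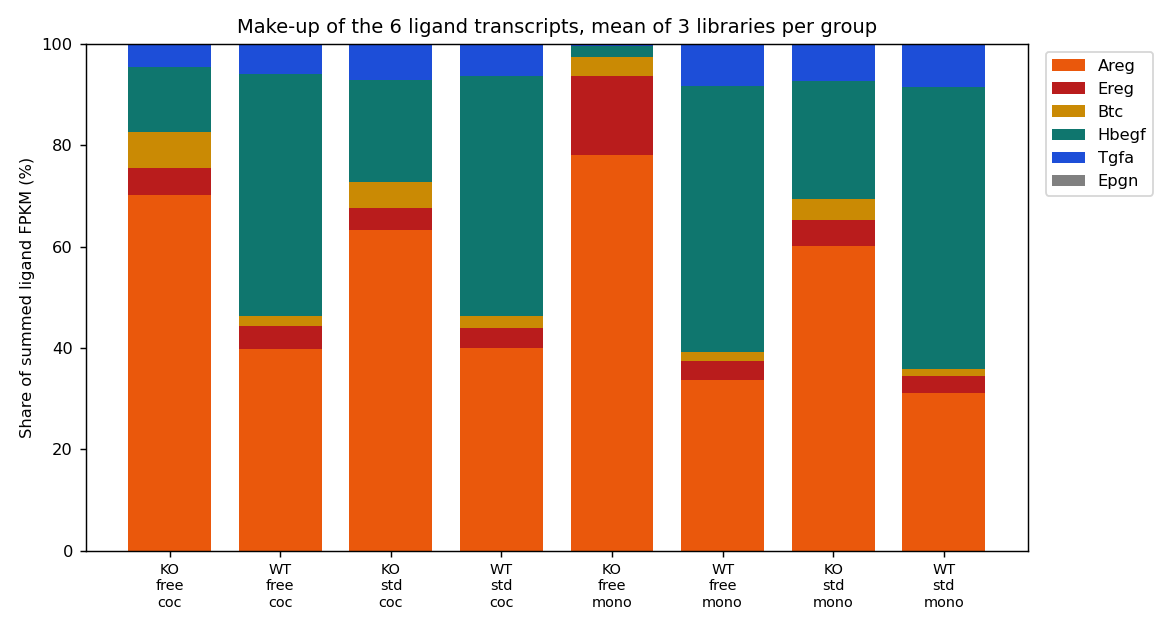
Share of each ligand gene in the summed FPKM of the 6 ligand genes (percent, mean of 3 libraries) in each of the 8 groups, with free and std for the deprived and supplied media. Areg takes up 60.2 to 78.0% in KO groups and 31.1 to 40.1% in WT groups, where Hbegf takes 47.4 to 55.5%; Epgn is too low to be seen.

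Epgn, Ereg, Areg and Btc lie within 375.5 kb on chromosome 5, in that order. Epgn (ENSMUSG00000035020, 91027464 to 91035215) encodes epigen and ends 39.4 kb before Ereg. Ereg and Areg are 45.95 kb apart, and Btc, on the other strand, lies 208.8 kb beyond Areg. Although next to Ereg, Epgn had 0 to 6 reads per library. It had 0 reads in 9 of the 12 KO libraries and 7 of the 12 WT libraries, which allows an FPKM of up to 0.0683 to 0.104 by library (3 reads, counting error only). In the 3 deprived KO monocultures Epgn had 0 reads while Ereg had 10038 to 12508. Between the outermost ligand genes lie 3 further genes of the table. Gm19610, annotated as antisense, overlaps the first 152 bases of Ereg and had a mean FPKM of 29.4 in deprived KO monocultures, against 2.95 in deprived WT monocultures, and of 6.81 in deprived KO cocultures, against 7.43 in deprived WT cocultures. The sources used here do not state if counting used strand, so reads of Ereg and Gm19610 in the shared stretch cannot be told apart. Gm19619, a lincRNA between Areg and Btc, had at most 21 reads in a library, and the small nuclear RNA gene Gm23092 had 0 in all libraries. Of the other tested ligand and receptor genes, Erbb2 shares 9 bases with Mien1, which had a mean FPKM of 14.9 in deprived KO monocultures against 6.43 in deprived WT monocultures. Erbb2 also shares 91 bases with the small nuclear RNA gene Gm25048 (FPKM at most 2.3), and Tgfa shares 2360 bases with Gm43917 (at most 0.105).

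**Figure D4:**
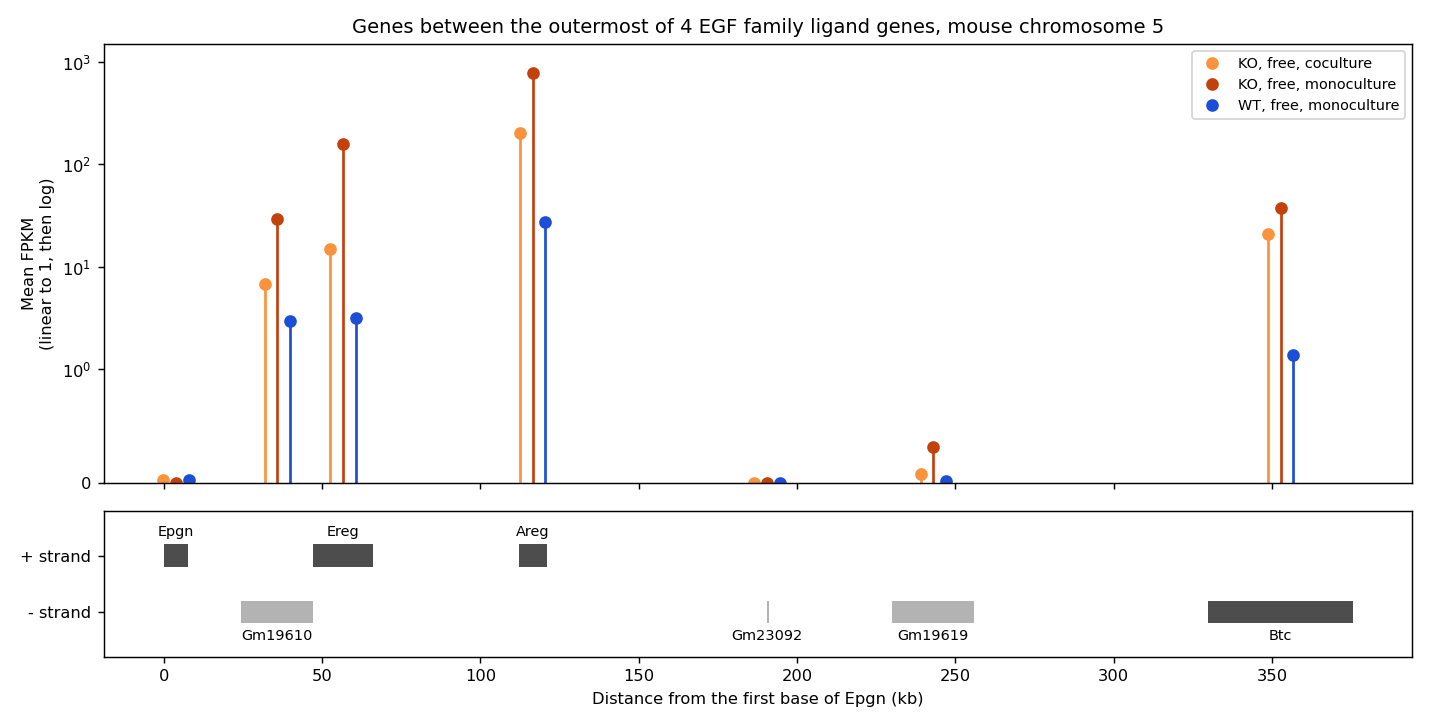
Mean FPKM (linear up to 1, then log) of the 7 genes between the outermost ligand genes of mouse chromosome 5 against the distance in kb from the first base of Epgn, for deprived KO cocultures, deprived KO monocultures and deprived WT monocultures, with the genes drawn below by strand (protein-coding dark). Ereg, Areg and Btc stand highest in deprived KO monocultures, while Epgn, at the left end, is at or near 0 in all of them.

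Egfr and Erbb3, the receptor genes that did not pass the filter, were read as FPKM and as reads recovered from FPKM and gene length. Egfr (ENSMUSG00000020122, chromosome 11, 16752203 to 16918158), which encodes the receptor of the ligands above, was near the floor in every library, with an FPKM of at most 0.0988. Deprived KO monocultures had 0, 5 and 5 reads, against 11, 16 and 12 in deprived WT monocultures. Supplied KO monocultures had 0, 0 and 1, against 18, 8 and 9 in supplied WT monocultures. These values do not overlap between genotypes. Deprived KO cocultures had 0, 2 and 1 reads, against 19, 15 and 14 in deprived WT cocultures. Supplied KO cocultures had 0, 3 and 0, against 13, 21 and 10 in supplied WT cocultures. In all, Egfr had 17 reads over the 12 KO libraries, 6 of which had 0, against 166 over the 12 WT libraries, none of which had 0.

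Erbb3 (ENSMUSG00000018166, chromosome 10, 128567523 to 128589652), which encodes a receptor for neuregulins, had 11, 8 and 15 reads in deprived KO monocultures, against 56, 72 and 73 in deprived WT monocultures. The supplied KO monocultures had 60, 71 and 58 reads, against 37, 43 and 51 in supplied WT monocultures, and cocultures had 35 to 76. The deprived KO monocultures were thus below every other group, with a mean FPKM of 0.110.

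With no filter on low values 27448 genes were tested by limma on the log2(FPKM + 1) scale, which leaves little room for change at such levels. In supplied monoculture 1 of the 3 low genes was called between KO and WT cells, where 18.9% of all genes were: Egfr, at −0.08 ± 0.02 (adjusted p = 0.00453). In deprived monoculture Egfr (−0.06 ± 0.02, adjusted p = 0.0114) and Erbb3 (−0.52 ± 0.07, adjusted p = 4.67e-06) were called, with 37.6% of all genes. In coculture Egfr was the 1 low gene called, at −0.09 ± 0.02 (adjusted p = 0.0011) in the supplied medium with 20.1% of all genes, and at −0.10 ± 0.02 (adjusted p = 0.000301) in the deprived medium with 25.4%. On withdrawal in KO monoculture Erbb3 was the 1 low gene called (−0.44 ± 0.07, adjusted p = 3.33e-05; 35.1% of all genes), and in deprived KO coculture against monoculture Erbb3 was again the 1 called (0.45 ± 0.07, adjusted p = 2.72e-05; 35.8% of all genes). Epgn did not pass in any of these 6 comparisons. Limma voom on the recovered reads, which keeps the full scale of low genes, called the same genes in these comparisons; the Egfr change between KO and WT cells was then −4.14 ± 0.82 in supplied and −2.34 ± 0.72 in deprived monoculture.

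Of the rest of the family, Erbb4 and Nrg3 had 0 reads in all 24 libraries. Egf itself had 5 to 48 reads per library. Nrg1, which encodes the ERBB3 and ERBB4 ligand neuregulin 1, passed the filter with an FPKM of 1.07 to 1.84. It was lower in KO cells in supplied coculture (1.11 ± 0.0345 in KO and 1.76 ± 0.0834 in WT cells, SD, n = 3 each; −0.39 ± 0.08, limma adjusted p = 0.000335). In deprived coculture it was also called lower in KO cells (−0.23), but there its KO and WT libraries overlapped.

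Likeness to the ligand patterns was measured as Pearson's r of mean log2(FPKM + 1) over the 8 groups, among 4509 protein-coding genes whose means span at least 1. The values are descriptions over points that share libraries. Among the genes closest to Ereg were Ythdc1 (r = 0.994), which encodes a reader of methylated RNA, and Klf6 (0.994), a zinc finger factor gene. Closest to Areg were Gpat3 (0.993), a glycerol phosphate acyltransferase gene, Atg2b (0.992), an autophagy gene, and Denr (0.991), which acts in translation reinitiation. Closest to Btc were Ano6 (0.995), which encodes a phospholipid scramblase, Rap2b (0.995), a small GTPase gene, and Gipc2 (0.994). Closest to Hbegf were Ptgs2 (0.992), which encodes cyclooxygenase 2, Mapk4 (0.986) and Cln8 (0.983). Ptgs2 had a mean FPKM of 79.2 in deprived KO monocultures, against 172 in deprived WT monocultures, and of 136 in deprived KO cocultures, against 281 in deprived WT cocultures. Closest to Tgfa were Sh3bgrl2 (0.990), Dip2a (0.990) and Add2 (0.989), an adducin gene that lies 70.8 kb from Tgfa. Closest to Erbb2 were Mcoln1 (0.997), a lysosomal channel gene, Trpt1 (0.991) and Prpf40b (0.991). Among the members themselves r was 0.978 between Areg and Btc, 0.961 between Areg and Ereg, 0.892 between Btc and Ereg and −0.977 between Erbb2 and Ereg. Mean FPKM of Ereg was 156 in deprived KO monocultures and 2.88 to 14.8 in the other groups. The r values of Ereg therefore lean on the deprived KO monocultures.

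Genes that act on the ligands and behind the receptors were counted from lists of the pathway. Of 8 tested genes of ligand shedding, 3 were higher and 4 lower in KO than in WT cells in deprived monoculture (median −0.14), against 37.4% higher and 36.3% lower and a median of 0.00139 over all tested genes. Adam17, the main protease for Areg and Ereg precursors, had a mean FPKM of 17.1 ± 1.40 in KO and 8.29 ± 0.231 in WT cells (SD, n = 3 each; 0.96 ± 0.09, limma adjusted p = 6.80e-09). Rhbdf2, which encodes the iRhom2 protein that carries ADAM17 to the surface, was at 2.46 ± 0.495 in KO and 8.56 ± 0.279 in WT cells (−1.48 ± 0.13, adjusted p = 3.89e-09). In deprived KO cells 5 of the 8 were higher in coculture than in monoculture and 0 were lower (median 0.37), against 35% higher and 36.3% lower of all tested genes (median −0.00637). They included Frmd8 (0.68 ± 0.11), which stabilises iRhoms, and Adam9 (0.54 ± 0.06).

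Of 18 adaptor and RAS-MAPK genes 5 were higher and 8 lower in KO cells in deprived monoculture (median −0.02), against 37.4% and 36.3% of all tested genes. The adaptors Gab1 (−1.45 ± 0.11, limma adjusted p = 4.12e-10) and Gab2 (−1.41 ± 0.06) and the phospholipase Plcg1 (−1.26 ± 0.06) were among those lower. On withdrawal in KO monoculture 6 rose and 10 fell, against 36.2% and 34.5% of all tested genes. Gab2 was at −1.06 ± 0.06 and Sos2 at 0.94 ± 0.08. In deprived KO coculture against monoculture 9 rose and 7 fell, where 35% of all tested genes rose and 36.3% fell. Map2k1, the gene of the kinase MEK1, was at 142 ± 2.55 in KO cocultures and 36.6 ± 2.49 in KO monocultures (1.93 ± 0.04, adjusted p = 3.54e-18), and it also rose in WT coculture (1.54 ± 0.04 when deprived). Of 9 PI3K-AKT genes 4 were higher and 5 lower in KO cells in deprived monoculture (median −0.36), against 37.4% and 36.3% of all tested genes, with Pdpk1 at 1.19 ± 0.07 and Pik3r2, a regulatory subunit gene, at −1.20 ± 0.14.

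Of 21 genes of receptor inhibition and feedback, 11 were higher and 6 lower in KO cells in deprived monoculture (median 0.19), against 37.4% and 36.3% of all tested genes. The members that moved went both ways. Errfi1, whose product binds and inhibits EGFR, had a mean FPKM of 159 ± 9.56 in KO and 70.8 ± 1.36 in WT cells (1.16 ± 0.05, limma adjusted p = 1.04e-13), and Dusp5, an ERK phosphatase gene, was at 1.58 ± 0.09. Spry1, a Sprouty inhibitor of RAS signalling, was at 2.35 ± 0.176 in KO and 16.8 ± 0.628 in WT cells (−2.41 ± 0.08, adjusted p = 1.34e-15), and Spred3 at −2.11 ± 0.09. In deprived KO coculture against monoculture 8 rose and 8 fell, where 35% of all tested genes rose and 36.3% fell, with Spry1 at 1.71 ± 0.08 and the ubiquitin ligase gene Cblb at 1.69 ± 0.09.

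Of 15 genes that respond to ERK, 9 were higher and 3 lower in KO cells in deprived monoculture (60% and 20%, against 37.4% and 36.3% of all tested genes). Epha2 had a mean FPKM of 412 ± 47.5 in KO and 94.95 ± 2.502 in WT cells (2.10 ± 0.07, limma adjusted p = 2.78e-15), Fosl1 was at 1.68 ± 0.09, Mcl1 at 1.31 ± 0.05 and Ccnd1, the gene of cyclin D1, at 1.09 ± 0.05. In supplied monoculture 5 were higher and 3 lower in KO cells, against 21.5% and 21.1% of all tested genes. In deprived coculture 4 were higher and 6 lower (median −0.25), against 26.3% and 27.4% of all tested genes. In supplied coculture 3 were higher and 4 lower (median −0.04), against 21.8% and 22% of all tested genes. On withdrawal in KO monoculture 10 rose and 3 fell (median 0.72), against 36.2% and 34.5% of all tested genes, with Ier3 at −1.34 ± 0.12 among those that fell. In deprived KO coculture against monoculture 5 rose and 9 fell (median −0.71), where 35% of all tested genes rose and 36.3% fell. Epha2 was at −1.91 ± 0.07 and Myc at −1.31 ± 0.07, while Dusp1 (1.60 ± 0.10) and Fos (1.33 ± 0.07) rose. In WT cells 8 rose and 0 fell in deprived coculture, against 14.9% and 13.1% of all tested genes. In supplied coculture 9 rose and 0 fell, against 16.3% and 14.9% of all tested genes, Fos by 0.90 ± 0.07 and Fosl1 by 0.88 ± 0.09. On withdrawal in WT cells 1 of the 15 was called in monoculture, where 1.37% of all tested genes rose, and 1 in coculture, where 0.439% rose, both higher.

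Of 13 genes of receptor endocytosis, 5 were higher and 5 lower in KO cells in deprived monoculture, near the 37.4% and 36.3% of all tested genes. In deprived coculture 8 were higher and 0 lower in KO cells (median 0.25), against 26.3% and 27.4% of all tested genes. Grb10, which encodes an adaptor that binds receptor kinases, had a mean FPKM of 2.46 ± 0.137 in deprived KO monocultures (SD, n = 3) and was at 0 in the 3 deprived WT monocultures. Its mean FPKM was also 1.13 in supplied KO monocultures, 1.49 in supplied KO cocultures and 1.76 in deprived KO cocultures. In the WT groups of these conditions it was 0, 0.00192 and 0.00188, in that order. Rab7, a gene of late endosomes, was at 0.78 ± 0.07 in KO against WT cells in deprived monoculture (limma adjusted p = 3.62e-09).

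**Figure D5:**
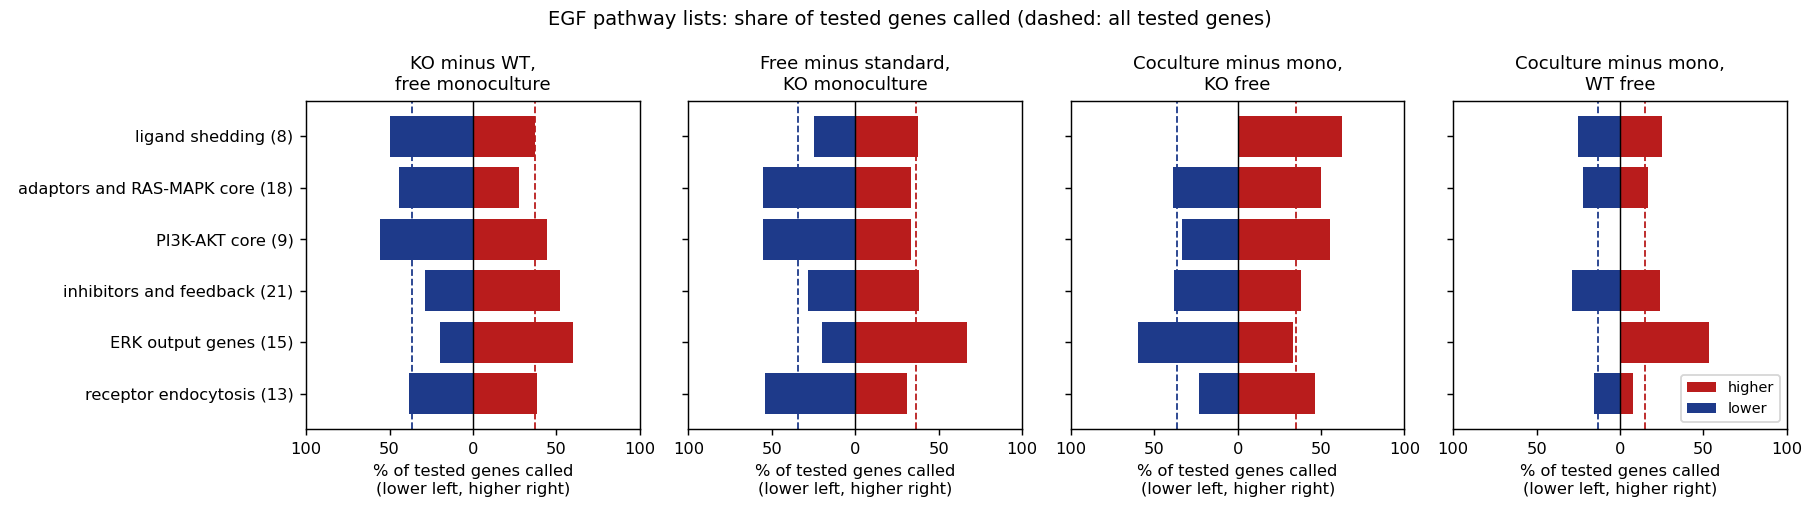
Share of the tested genes of 6 pathway lists (number in brackets) called higher (red, to the right) or lower (blue, to the left) in 4 comparisons, in percent, with the shares over all 12061 tested genes as dashed lines; free and standard are the deprived and supplied media. ERK output genes were called higher in 9 of 15 cases for KO against WT in deprived monoculture and lower in 9 of 15 for coculture of deprived KO cells.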

How the data were processed

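RNA was sequenced in 24 libraries of 8 groups. Per the submitters' processing notes reads were aligned with HISAT2 to GRCm38 (mm10). Not given in the sources used here are the HISAT2 version, read counter, annotation release and use of strand. The authors deposited FPKM per gene with identifiers, positions and gene lengths; the table had 0 columns of other samples. FPKM times gene length gave whole reads within 0.01 for 100% of values. The scaling total behind FPKM lay between 0.969 and 1.07 times the sum of reads of a library, for a reason not stated. No libraries were identical (0 pairs), and replicates differed by more than sampling noise (chi-square per degree of freedom 2.99 to 65.7).

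The 12061 genes that reached an FPKM of 1 in 3 or more libraries were tested as log2(FPKM + 1), a scale that understates the change of low genes. All libraries entered 1 limma 3.58.1 model of 8 group means (moderated two-sided test with trend, 16 residual degrees of freedom, no block, R 4.3.3), with Benjamini-Hochberg adjustment over all genes of a comparison. The script was tested on simulated data. The members, pathway lists and markers were chosen with earlier results of these data known. All members are named; from each list at most 4 called genes with the largest change and no overlap of libraries could be named, and for likeness the 3 closest genes per member; results for some genes that these rules pick are not reported here. Genes were matched to the files' symbols; Hgs, with 2 rows, was left out. Alternatives were a pseudocount of 0.1, no filter, quantile normalization, median-of-ratios rescaling, voom on recovered reads, only the compared groups, the replicate block, each library left out, and, chosen after seeing the data, omission of replicate 1 of both KO monocultures and voom with no FPKM filter. Replicate numbers come from the labels. Deviations of same-numbered libraries correlated at −0.34 to 0.401 over 36 pairs. All exceeded 0.1 only for withdrawal in KO monoculture (0.401, 0.276 and 0.114). The tests given for that comparison treat its libraries as unpaired, and the replicate block entered only as an alternative for all comparisons.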

Additional observations from a re-analysis of the deposited data

Results flagged for a closer look

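The test of the difference between effects passed for 18 pairs of gene and contrast, with 6 genes tested in each contrast. Of all tested genes, 61.2% were called for the withdrawal effect in KO minus WT monocultures. The share was 14.4% for the same difference in cocultures. It was 57.7% for the withdrawal effect in coculture minus monoculture of KO cells, and 10.4% for the coculture effect in supplied KO minus WT cells. The values per gene below are limma log2 differences on the log2(FPKM + 1) scale with their adjusted p.

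The withdrawal effect in KO minus that in WT monocultures was 4.33 for Ereg (2.27e-13), 3.23 for Areg (2.62e-10), 2.47 for Btc (3.54e-10), −0.42 for Hbegf (3.16e-05), −0.79 for Tgfa (7.45e-08) and −0.97 for Erbb2 (1.44e-07). In coculture the same difference was 0.79 for Ereg (0.007), 0.95 for Areg (0.00783) and 1.32 for Btc (6.73e-05).

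In KO cells the withdrawal effect in coculture minus that in monoculture was −3.52 for Ereg (6.13e-12), −2.42 for Areg (1.97e-08), −1.47 for Btc (5.81e-07), 0.60 for Hbegf (3.83e-07), 0.93 for Tgfa (9.95e-09) and 0.65 for Erbb2 (2.70e-05). The coculture effect in supplied KO cells minus that in supplied WT cells was −0.66 for Ereg (0.0235), −0.75 for Areg (0.0348) and −0.44 for Hbegf (0.00033).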

How the results depend on the processing

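Of 1488 values of single genes under an alternative, 1444 kept their side of the threshold, 35 lost a call, 9 gained one and 0 reversed. For coculture against monoculture in supplied KO cells the number of genes called was 4, but 2 with only the groups compared, and 3 to 5 with single libraries left out. Without replicate 1 of both KO monocultures, Ereg (limma adjusted p = 0.0166) and Erbb2 (0.048) were called there as well. For the withdrawal effect in KO minus that in WT cocultures the number called was 3, but 5 without replicate 1 of both KO monocultures. For the coculture effect in supplied KO minus WT cells it was 3, but 1 with no filter, 1 with only the groups compared, and 1 to 3 with single libraries left out. It was 4 with a pseudocount of 0.1, where Btc also passed (−0.78, adjusted p = 0.0148, against −0.41 and 0.143), and voom put Btc at −0.83 without a call. With the replicate block this last count was 2 (Areg at an adjusted p of 0.0549), and the count for KO against WT in deprived coculture was 5 instead of 6 (Erbb2 at an adjusted p of 0.0538); the block changed no other call. Causes were not tested. Depth limits Egfr, Epgn and Erbb3, with at most 76 reads in a library.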
